A study of Rattus norvegicus with 11 samples.

Results

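Keratins of the bladder lining were followed in rats with partial bladder outlet obstruction (PBOO), as 10 genes chosen by symbol (Krt5, Krt7, Krt8, Krt13, Krt14, Krt15, Krt17, Krt18, Krt19 and Krt20) out of the 18507 genes in the table. The question was whether keratins of the basal layer and of the surface layer of the urothelium moved together or apart in obstructed bladders. At week 4, no keratin passed the test. At week 5, the basal keratins Krt5 and Krt15 rose 11.5-fold and 5.64-fold, Krt18 fell 2.83-fold, and Krt20, the keratin of the surface cells, fell 88.7-fold on the log2(FPKM + 0.1) scale. Krt19 and Krt17 were also called higher, but Krt19 lost its call when either of 2 samples was left out and when samples were centred on epithelial genes, and Krt17 was tested only because it was high in PBOO.

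Keratins are the intermediate filament proteins of epithelial cells, and they assemble as pairs of one type I and one type II chain. Of the 10 genes, Krt5, Krt7 and Krt8 encode type II chains and the other 7 encode type I chains. In the urothelium, the basal cells that rest on the basement membrane are known for Krt5, with Krt14, Krt15 and Krt17 in all or some of them. Krt7, Krt8, Krt18 and Krt19 are keratins of simple epithelia and of several urothelial layers, Krt13 is known from basal and intermediate cells, and Krt20 is the classic keratin of umbrella cells, the large surface cells that also carry uroplakin plaques. The basal group was therefore Krt5, Krt14, Krt15 and Krt17 (4 genes), the superficial group was Krt20 alone, and the remaining 5 genes were taken as intermediate.

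The libraries came from bladder tissue of female Sprague-Dawley rats of about 0.5 years of age, in which a suture tied around the bladder neck narrowed the outlet. Control rats, labelled normal, had the abdominal incision without the tie by the methods. The control libraries of week 5 have the word adult in their labels, and no source used here says whether those rats had that incision, so every comparison at week 5 is with controls whose surgery is uncertain. There were 3 PBOO and 3 normal samples at week 4 and 2 PBOO and 3 normal samples at week 5. The study describes its replicates as biological, and the labels do not tie samples to animals. P-values measure the spread between these samples. Values are FPKM, fragments of a gene divided by its exon length and by the mapped fragments of the library, so they are relative to the whole RNA of each sample. Because the tissue was measured in bulk, fewer cells of a type and less RNA per cell cannot be told apart.

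RefSeq promoters of the rat genome GRCr8 were at hand for 4 of the 10 genes, and these 4 are shown because they include a basal and a superficial keratin that moved in opposite directions at week 5 (Krt5 and Krt20) and the pair Krt8 and Krt18, whose chains assemble together. Each runs 5′ to 3′ on the gene's own strand, from 250 bases before the start site to 50 bases after it, 300 bases in all. Capitals mark matches to a TATA box (spelled TATAAA), an AP-1 motif (TGANTCA), an AP-2 motif (GCCNNNGGC) and a GC box (spelled GGGCGG), searched on both strands together with a Grainyhead-like motif (AACCNGTT), a GATA motif (spelled AGATAA) and the PPAR direct repeat, which had no match in these windows. The Krt5 window is chr7:134730520-134730819 on the minus strand, Krt8 is chr7:135010290-135010589 on the minus strand, Krt18 is chr7:135035918-135036217 on the plus strand, and Krt20 is chr10:84890236-84890535 on the minus strand.
Krt5: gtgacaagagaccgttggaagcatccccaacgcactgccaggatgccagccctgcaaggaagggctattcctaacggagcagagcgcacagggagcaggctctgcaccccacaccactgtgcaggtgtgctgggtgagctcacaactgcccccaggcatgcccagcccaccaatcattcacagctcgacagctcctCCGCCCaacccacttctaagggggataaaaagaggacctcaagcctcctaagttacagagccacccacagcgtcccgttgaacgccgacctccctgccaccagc
Krt8: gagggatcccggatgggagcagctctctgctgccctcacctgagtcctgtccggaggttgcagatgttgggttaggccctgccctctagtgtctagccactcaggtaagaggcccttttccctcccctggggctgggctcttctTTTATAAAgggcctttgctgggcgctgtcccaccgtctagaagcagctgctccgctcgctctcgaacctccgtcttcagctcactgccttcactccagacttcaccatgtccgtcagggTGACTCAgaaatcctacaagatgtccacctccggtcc
Krt18: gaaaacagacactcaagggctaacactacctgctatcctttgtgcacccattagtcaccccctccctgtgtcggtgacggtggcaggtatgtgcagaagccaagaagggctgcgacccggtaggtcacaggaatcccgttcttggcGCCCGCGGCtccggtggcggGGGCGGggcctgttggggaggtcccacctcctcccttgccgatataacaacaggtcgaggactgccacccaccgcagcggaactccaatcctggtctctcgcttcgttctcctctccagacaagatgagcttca
Krt20: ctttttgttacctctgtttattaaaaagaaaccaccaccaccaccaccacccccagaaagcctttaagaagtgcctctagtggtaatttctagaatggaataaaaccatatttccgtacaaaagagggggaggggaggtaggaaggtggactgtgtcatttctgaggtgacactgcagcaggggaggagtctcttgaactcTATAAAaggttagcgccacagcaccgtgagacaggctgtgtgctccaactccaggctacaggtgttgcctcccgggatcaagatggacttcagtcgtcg

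The Krt20 window holds a TATA box whose first base lies at position -49. The Krt8 window holds one at -104, overlapped by a match on the other strand at -106, and an AP-1 match at 13. In the Krt8 window, the bases from the start site on read atg, the letters of a start codon. Its positions may therefore be counted from a start codon, with the AP-1 match in coding sequence. They may not compare with positions in the other windows. The Krt5 window holds a GC box on the other strand at -54, and the Krt18 window an AP-2 match at -104 and a GC box at -84. Krt8 and Krt18, which are neighbours with 0 protein-coding genes between them, shared none of the 4 matched motifs in these windows. The 2 windows may not cover like stretches, so no conclusion is drawn from that. Of 33469 rat promoters of the same length, 14.2% held the TATA box, 7.33% the AP-1 motif, 15.1% the AP-2 motif and 33.1% the GC box. The Grainyhead-like motif was in 2.10% of them, the GATA motif in 11.6% and the PPAR repeat in 0.0538%. On chromosome 7, the order is Krt7, Krt5, Krt8 and Krt18, and the other 6 genes lie on chromosome 10 in the order Krt20, Krt13, Krt15, Krt19, Krt14 and Krt17. Krt13, Krt15 and Krt19 are next to each other there, while 39 protein-coding genes separate Krt20 from Krt13.

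Some facts of the whole table bear on these genes. The columns sum to between 424961 and 564343 FPKM, the sequencing depth is unknown, and 4871 genes were listed at 0 in every week 4 sample. Among them were 62 of the 657 genes whose week 5 samples averaged 100 FPKM or more, and Krt7 was one of these, so a 0 is given only as the listed value. The submitters' processing notes name mm10, a mouse genome build, for these rat samples, which was not resolved here. Close relatives such as Krt14, Krt16 and Krt17, and genes with processed copies elsewhere in the genome such as Krt8 and Krt18, can share reads, and their levels are uncertain to that extent. Epithelial markers were present in every sample. Epcam, an adhesion molecule of epithelial cells, ranged from 180 to 533 FPKM over the 11 samples, Cdh1 (E-cadherin) from 74.3 to 393 FPKM, the uroplakin Upk3a from 766 to 1850 FPKM and Tp63, a transcription factor of basal cells, from 6.32 to 28.5 FPKM.

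In normal bladders, Krt19, Krt18, Krt8 and the basal Krt15 were among the most abundant keratins in both weeks, with Krt7 at week 5, and Krt17 and Krt13 were low in both. At week 4, Krt19 was highest with 985 ± 147 FPKM (SD, n = 3), above Krt15 with 708 ± 58.2 FPKM (SD, n = 3), and the ranges of Krt15 and Krt8 and those of Krt8 and Krt18 overlapped. Krt5 followed with 235.5 ± 18.1 FPKM (SD, n = 3), Krt20 with 45.1 ± 7.09 FPKM (SD, n = 3) and Krt14 with 24.6 ± 6.56 FPKM (SD, n = 3), each apart from its neighbours. Krt15 was therefore the main basal keratin by level, above Krt5 in all 6 normal samples. At week 5, Krt18, Krt19, Krt7, Krt8 and Krt15 had means from 949 down to 634 FPKM and each overlapped with the next, Krt5 lay below them at 134 ± 43.1 FPKM (SD, n = 3), and Krt20 (66.9 ± 27.0 FPKM, SD, n = 3) and Krt14 (46.9 ± 34.1 FPKM, SD, n = 3) overlapped. Krt17 (0.967 ± 0.634 FPKM at week 4 and 0.461 ± 0.201 FPKM at week 5, SD, n = 3 each) was near the limit of what was kept for testing. Krt13 did not exceed 1.02 FPKM in any sample, so this table gives no picture of that keratin of intermediate cells, and it was below the filter on low values in both weeks.

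**Figure D1:**
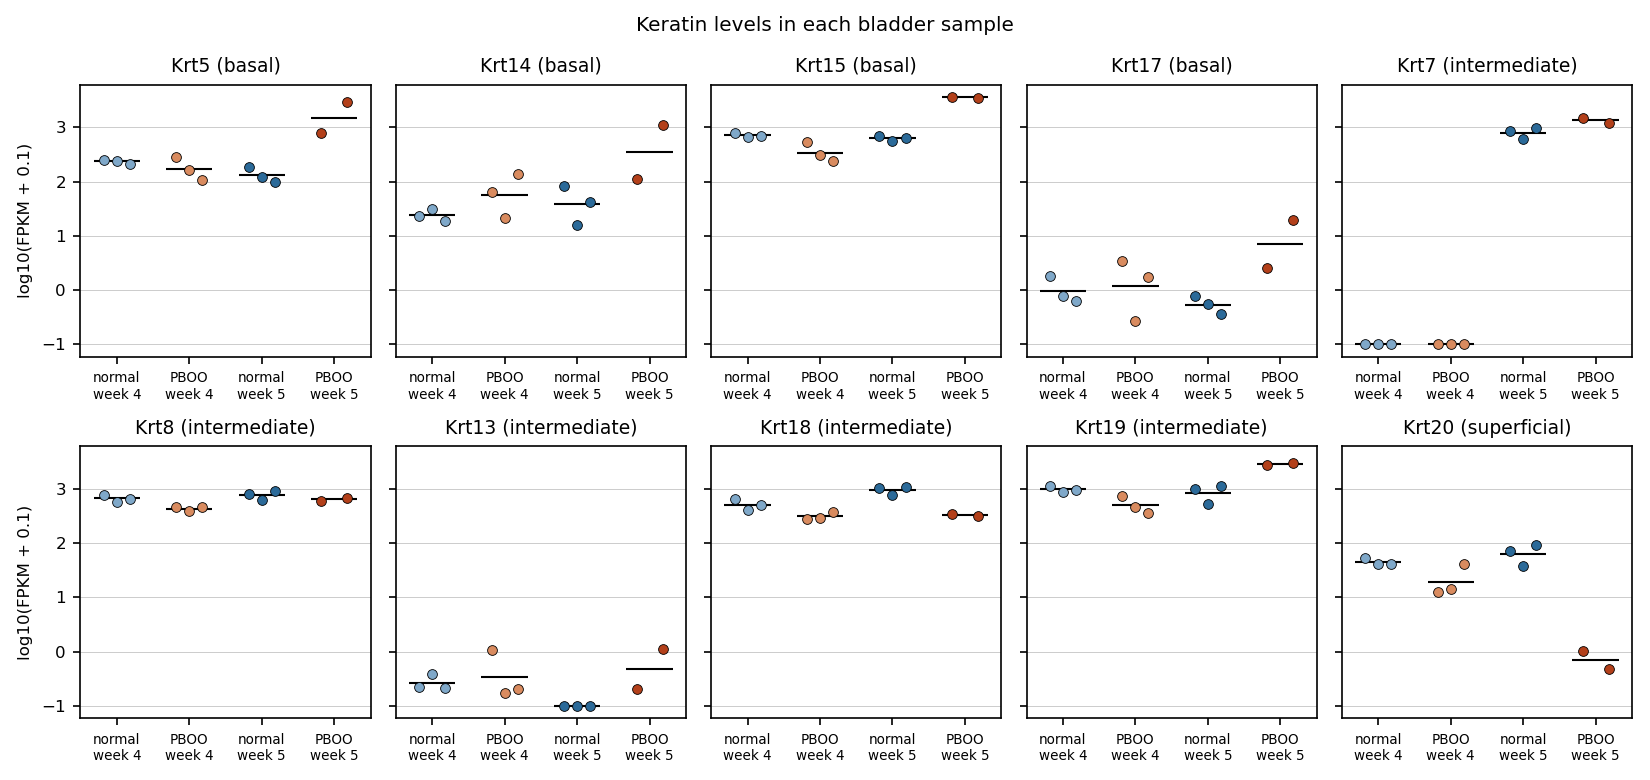
Levels of the 10 keratins in each sample, as log10(FPKM + 0.1) on the vertical axis, with the 4 groups of samples on the horizontal axis; points are samples and lines are the means of the plotted values. At week 5, both PBOO points lie above all 3 normal points for Krt5, Krt14, Krt15, Krt17, Krt7 and Krt19 and below them for Krt18 and Krt20, and Krt7 is listed at 0 in all 6 samples of week 4.

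At week 4, the first comparison asked how the keratins stood after 4 weeks of obstruction. Of the 10 genes, 8 passed the filter of a mean of at least 0.5 FPKM, and 0 of them reached an adjusted p under 0.05 with a 2-fold change in limma, where 0.371% of all 11320 genes did. With an unadjusted p under 0.05, 5 of the 8 keratins were lower in PBOO (Krt8, Krt15, Krt18, Krt19 and Krt20) and 0 were higher, beside 26.2% and 5.76% of all genes. In 4 of them, all but Krt20, the PBOO and normal samples did not overlap, beside 34.9% of all genes that were separated in this direction, and 0 were separated upward, beside 6.63%. The keratins that stood lower spanned all 3 groups.

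Krt15, a basal keratin, was at 774, 668 and 680 FPKM in the normal samples and at 535, 307 and 238 FPKM in the PBOO samples. All 3 PBOO samples were lower, with a log2 fold change of -1.06 (SE 0.28, adjusted p = 0.0783 in limma). Leaving out 1 sample at a time gave values from -1.39 to -0.80 (limma, adjusted p between 0.010 and 0.225). The value of -1.39 came without PBOO replicate 1, the highest of the 3. Krt19, which is known from all urothelial layers, was at 1148, 863 and 946 FPKM against 741, 462 and 355 FPKM, again with every PBOO sample lower. Its log2 fold change was -0.98 (SE 0.27, adjusted p = 0.0817 in limma). Leaving out 1 sample at a time gave values from -1.27, without PBOO replicate 1, to -0.74 (limma, adjusted p between 0.0145 and 0.225).

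The partners Krt8 and Krt18 stood lower by similar amounts. Krt8 was at 777, 576 and 657 FPKM in normal and at 459, 383 and 454 FPKM in PBOO bladders (log2 fold change -0.63, SE 0.15, adjusted p = 0.0687 in limma). Krt18 was at 650, 400 and 492 FPKM in normal and at 275, 293 and 381 FPKM in PBOO bladders (log2 fold change -0.69, SE 0.21, adjusted p = 0.0933 in limma). For both genes, the highest PBOO sample was below the lowest normal sample.

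Krt20 was at 53.2, 41.6 and 40.4 FPKM in the normal samples and at 12.2, 14.4 and 40.6 FPKM in the PBOO samples. PBOO replicates 1 and 2 were well below the normal samples, while replicate 3 lay within their range, and the log2 fold change was -1.21 (SE 0.43, adjusted p = 0.116 in limma). Krt5 was at 248, 244 and 215 FPKM against 279, 163 and 108 FPKM, so the groups overlapped (log2 fold change -0.47, SE 0.31, adjusted p = 0.317 in limma). Krt14, the usual partner of Krt5, had a positive difference of 1.25 (SE 0.62, adjusted p = 0.203 in limma). It was at 23.5, 31.6 and 18.6 FPKM in normal and at 64.1, 21.2 and 137 FPKM in PBOO bladders. PBOO replicate 2 lay within the normal range and replicate 3 was the highest, and that sample had the lowest Krt5. Krt17, a keratin of basal cells and of activated epidermis, was low in both groups, at 1.69, 0.678 and 0.529 FPKM in normal and 3.37, 0.165 and 1.67 FPKM in PBOO bladders. Its log2 fold change of 0.30 (SE 0.95, adjusted p = 0.834 in limma) turned to -0.48 without PBOO replicate 1.

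These week 4 differences had company among other epithelial genes. Of 20 genes used by epithelia in general (Epcam, Cdh1, claudins, Grainyhead-like and Ets factors and others), 0 were called. At an unadjusted p under 0.05, 16 were lower and 0 higher, beside 26.2% and 5.76% of all genes. The list had a median log2 fold change of -0.76, where the median of all genes was -0.25. Claudin gene Cldn4 had a log2 fold change of -1.03 and Epcam one of -0.97 (adjusted p = 0.0538 for each in limma). The summed level of the 20 genes was between 2072 and 2776 FPKM in normal and between 1020 and 1694 FPKM in PBOO bladders, while the sum of 10 smooth muscle genes was between 25717 and 27883 FPKM in normal and between 51368 and 82648 FPKM in PBOO bladders. When each sample was centred on the 20 epithelial genes, the log2 differences of Krt5, Krt8 and Krt18 turned positive (0.28, 0.12 and 0.06), those of Krt15, Krt19 and Krt20 were -0.31, -0.24 and -0.46, and 0 keratins were lower at an unadjusted p under 0.05. The part of tissue composition in the keratin values was otherwise not tested.

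At week 5, 9 of the 10 keratins passed the filter and 6 were called, 4 of them higher (Krt5, Krt15, Krt17 and Krt19) and 2 lower (Krt18 and Krt20). Of all 13685 genes tested, 19.3% were called, 7.91% higher and 11.4% lower. By the wider measure of an unadjusted p under 0.05, 6 keratins were higher and 2 lower, beside 24.6% and 18.8% of all genes, and the same 6 and 2 had groups that did not overlap, beside 35.3% and 25.0% of all genes. Krt17 averaged 0.461 FPKM in normal bladders, below the filter, and entered the test only through the PBOO samples, so its direction was fixed by the filter and it adds nothing to these counts. Of the other 3 basal keratins, Krt5 and Krt15 were called higher and Krt14 was higher at an unadjusted p, and the sole superficial keratin was called lower.

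Krt5, the type II keratin of basal cells, was at 182, 124 and 97.4 FPKM in the normal samples and at 780 and 2859 FPKM in the PBOO samples. Both PBOO samples lay far above the normal ones, and PBOO replicate 2 was well above replicate 1. Krt5 rose 11.5-fold, with a log2 fold change of 3.52 (95% interval 2.09 to 4.96, adjusted p = 0.00893 in limma). In the order of all 18507 genes by FPKM, Krt5 stood at ranks 322, 503 and 617 in the normal samples and at ranks 73 and 7 in the PBOO samples. Without PBOO replicate 2, the higher sample, the log2 fold change was 2.59, and without PBOO replicate 1 it was 4.46. With 1 PBOO sample left, the spread comes from the normal samples alone and the lone sample is assumed to vary like them, so adjusted p-values of such fits are not read as support (here 0.0101 and 0.00398 in limma).

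Krt15 was the steadiest of the basal keratins. It was at 698, 559 and 645 FPKM in normal bladders and at 3628 and 3497 FPKM in PBOO bladders, so that the PBOO samples nearly coincided. It rose 5.64-fold (log2 fold change 2.50, 95% interval 2.05 to 2.94, adjusted p = 0.000657 in limma). With that it was the most abundant of the 10 keratins in PBOO, at 3562 ± 92.3 FPKM (SD, n = 2), and the gene at rank 3 and rank 4 in the tables of these samples, against ranks 82, 110 and 85 in normal bladders.

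Krt17 was at 0.668, 0.449 and 0.267 FPKM in normal and at 2.51 and 19.3 FPKM in PBOO bladders. It passed the filter only through the PBOO samples, so it had to differ, and its rise (log2 fold change 3.73, SE 0.87, adjusted p = 0.0264 in limma) was lost without any single normal sample (limma, adjusted p between 0.0657 and 0.0856). The log2 fold change was 2.28 with PBOO replicate 1 alone and 5.17 with PBOO replicate 2 alone. Krt14 was at 83.3, 15.7 and 41.6 FPKM in normal and at 112 and 1078 FPKM in PBOO bladders. Its PBOO samples differed by almost a factor of 10, and the log2 fold change of 3.19 (SE 1.11, adjusted p = 0.0806 in limma) did not pass. With PBOO replicate 2 alone, the log2 fold change was 4.83 (limma, adjusted p = 0.0241), and with PBOO replicate 1 alone it was 1.56 (limma, adjusted p = 0.267), with the spread taken from the normal samples in both fits. Krt14 and Krt17, which lie close together on chromosome 10, were thus both highest in PBOO replicate 2.

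That sample was also highest in other genes. Krt16, a keratin of stratified and stressed epidermis, was at 0.716 and 10.02 FPKM in PBOO replicates 1 and 2. The neutrophil and keratinocyte gene S100a9 was at 8.87 and 287 FPKM, S100a8 at 2.74 and 145 FPKM and the proliferation gene Mki67 at 0.277 and 8.71 FPKM. In the other direction, Krt4 of stratified mucosa was at 725 and 84.9 FPKM, and the mesothelial gene Msln at 170 and 32.01 FPKM. Their part in the keratin values of replicate 2 was not tested.

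Among the intermediate keratins, the directions were split. Krt19 was at 1003, 533 and 1127 FPKM in normal and at 2701 and 3002 FPKM in PBOO bladders, where both samples stood above all controls. It rose 3.37-fold (log2 fold change 1.75, SE 0.35, adjusted p = 0.0172 in limma), and the call was lost without normal replicate 1 (limma, adjusted p = 0.0532) and without PBOO replicate 2 (limma, adjusted p = 0.0563, with the spread of the normal samples alone). Krt18 went the other way, from 1014, 769 and 1065 FPKM in normal to 350 and 316 FPKM in PBOO bladders. It fell 2.83-fold (log2 fold change -1.50, SE 0.19, adjusted p = 0.00429 in limma), from the first place among the keratins of the normal group to the seventh in PBOO. Its partner Krt8 was at 815, 612 and 894 FPKM in normal and at 606 and 682 FPKM in PBOO bladders. The groups overlapped, with a log2 fold change of -0.25 (95% interval -0.77 to 0.28, adjusted p = 0.409 in limma). Krt7, a type II keratin of simple and transitional epithelia, was at 846, 595 and 956 FPKM in normal and at 1476 and 1202 FPKM in PBOO bladders. Both PBOO samples were higher, but the log2 fold change of 0.77 (SE 0.25, adjusted p = 0.0723 in limma) did not pass. Krt13 was listed at 0 in all 3 normal samples and at 0.103 and 1.02 FPKM in PBOO bladders and was not tested.

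Krt20 showed the widest change of the 10 genes. It was at 72.7, 37.5 and 90.6 FPKM in normal bladders and at 0.940 and 0.383 FPKM in PBOO bladders. Both PBOO samples were below 1 FPKM, and the log2 fold change was -6.47 (95% interval -7.67 to -5.27, adjusted p = 0.00076 in limma). Leaving out any 1 sample gave values between -7.02 and -5.92. Since the PBOO values are close to the pseudocount, the size depends on it, with -5.28 at a pseudocount of 1 and -6.68 at 0.01.

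**Figure D2:**
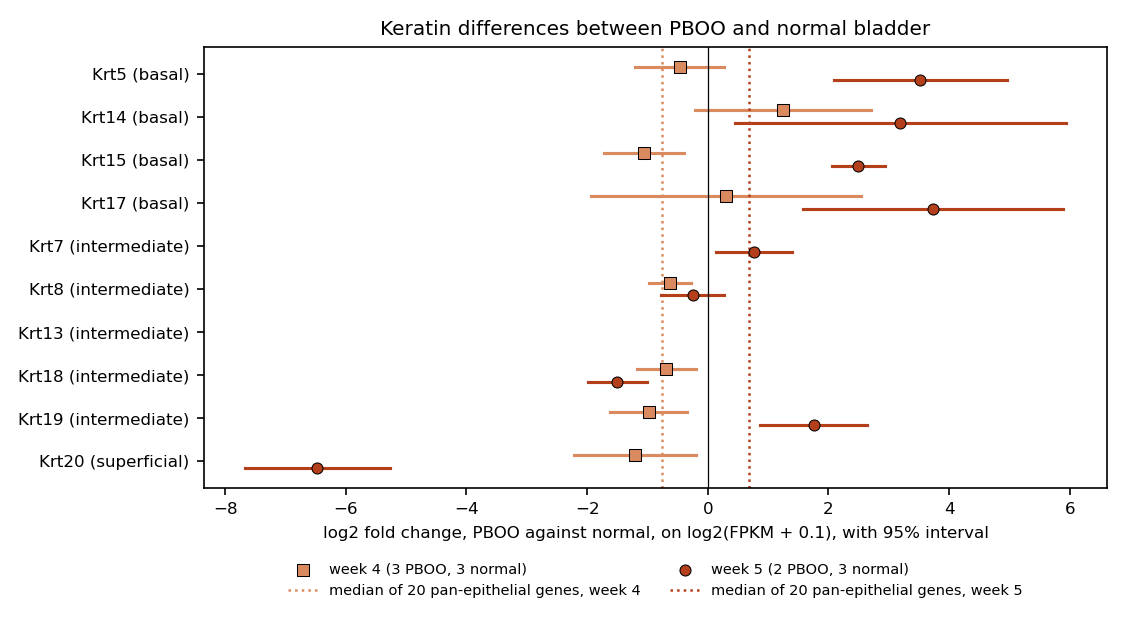
Difference between PBOO and normal bladders for each keratin, as log2 fold change of FPKM + 0.1 on the horizontal axis, with 95% intervals from limma as bars; squares are week 4, circles are week 5, and dotted lines are the medians of 20 epithelial genes (-0.76 at week 4 and 0.68 at week 5). At week 5, Krt5, Krt14, Krt15, Krt17, Krt19 and, narrowly, Krt7 lie to the right of that median, and Krt8, Krt18 and Krt20 to the left of 0. Krt13 was not tested and Krt7 only at week 5.

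The keratins were then set against the other epithelial genes at week 5, since whole tissue can hold more or less epithelium. Of the 20 general epithelial genes, 5 were called higher and 0 lower, beside 7.91% and 11.4% of all genes. Their median log2 fold change was 0.68 where all genes had 0.12. Their summed level was between 2104 and 2584 FPKM in normal and between 3872 and 5318 FPKM in PBOO bladders. Tjp3, a tight junction protein, rose 5.48-fold, the epithelial transcription factor Elf3 4.19-fold, the claudins Cldn7 and Cldn4 3.23-fold and 2.96-fold, and the Ets factor Ehf 2.07-fold. The list was not uniform. At an unadjusted p under 0.05 in limma, 14 of the 20 were higher and 1 lower, beside 24.6% and 18.8% of all genes. The lower one, Prom2, fell 1.96-fold (adjusted p = 0.00421 in limma), just short of the 2-fold cut. Epcam itself was at 319, 246 and 309 FPKM in normal and at 533 and 320 FPKM in PBOO bladders (log2 fold change 0.51, adjusted p = 0.187 in limma), and Tp63 had a log2 fold change of -0.05 (limma, adjusted p = 0.903). Tp63 was at 10.4, 7.11 and 8.99 FPKM in normal and at 11.2 and 6.32 FPKM in PBOO bladders. Some other genes of basal cells had positive differences, among them Itgb4 (1.48, adjusted p = 0.00238 in limma) and Cd44 (1.44, adjusted p = 0.0202 in limma). Itga6 (0.79, adjusted p = 0.010 in limma, under 2-fold) was near the median of the 20 epithelial genes. Dst, listed with the junction genes below, was lower (-0.84, adjusted p = 0.0140 in limma, under 2-fold). Cdh3, of the 20 epithelial genes, had -0.31 (adjusted p = 0.686 in limma). Basal markers other than keratins therefore did not all stand alike.

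Krt17 aside, the directions of the called keratins held after each sample was centred on the 20 epithelial genes. Krt5 was at 2.78 (limma, adjusted p = 0.0136) and Krt15 at 1.75 (limma, adjusted p = 0.00300). Krt18 was at -2.24 (limma, adjusted p = 0.000605) and Krt20 at -7.21 (limma, adjusted p = 4.10e-05). Krt17 was at 2.99 (limma, adjusted p = 0.0389). It entered the test only through the PBOO samples, so its direction is not counted here. Krt19 had 1.01 and lost its call (limma, adjusted p = 0.0642). Krt7 was at 0.02 (limma, adjusted p = 0.947). Krt8 was at -0.99 (limma, adjusted p = 0.0260), just short of a 2-fold difference.

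The muscle and stroma of the same samples stood far from their controls. All 10 smooth muscle genes were called lower in PBOO at week 5, where 11.4% of all genes were. Their median log2 fold change was -4.34, and their sum was between 25009 and 29412 FPKM in normal and between 997 and 1867 FPKM in PBOO bladders. Of 10 fibroblast genes, 8 were called lower (median -3.54), and their sum was between 1569 and 2005 FPKM in normal and between 134 and 190 FPKM in PBOO bladders. Of 10 leukocyte genes, 5 were called higher (S100a9, Cd68, Cd3e, Cd14 and Lyz2), beside 7.91% of all genes. The median of the 10 was 2.95, and their sum was between 192 and 371 FPKM in normal and between 632 and 2426 FPKM in PBOO bladders. Smooth muscle markers remained above 0 in every sample, with Acta2 at 316 and 118 FPKM and Myh11 at 111 and 67.4 FPKM in the 2 PBOO samples. Of 8 proliferation genes, 0 were called by limma in either week. At an unadjusted p under 0.05, 4 were higher at week 4 and 0 at week 5, beside 5.76% and 24.6% of all genes. Of 6 mesothelial genes, 2 were tested at week 5 and Upk3b was called lower. How far these differences in tissue make-up set the level of each keratin was not tested, beyond the centred values above.

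Because ratios of 2 genes within a sample do not depend on how samples are scaled, basal and superficial keratin were also compared that way. The log2 ratio of Krt5 to Krt20 at week 4 was 2.22, 2.55 and 2.41 in normal and 4.50, 3.49 and 1.41 in PBOO bladders. Replicates 1 and 2 of PBOO were above and replicate 3 below all controls, and the difference of 0.74 gave p = 0.5 in an exact two-sided permutation test (n = 3 and 3, smallest possible p 0.1). At week 5, the log2 ratio was 1.32, 1.72 and 0.10 in normal and 9.55 and 12.5 in PBOO bladders. The groups were far apart, by 9.99 on the log2 scale or 1020-fold (8.80 on the log2 scale at a pseudocount of 1 and 10.2 at 0.01), and the exact two-sided permutation test gave p = 0.2, the smallest it can give with n = 3 and 2.

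Further ratios were chosen after the values were seen and are given without a test. The ratio of Krt8 to Krt18 at week 5 was 0.804, 0.796 and 0.840 in normal and 1.73 and 2.16 in PBOO bladders. The ratio of Krt15 to Krt18 was between 0.606 and 0.727 in normal and was 10.4 and 11.1 in PBOO bladders. In both ratios, the samples of a group agreed closely and the groups were apart, while at week 4 the groups overlapped in both. The ratio of Krt14 to Krt5 was the reverse case. At week 4, it was 0.0951, 0.130 and 0.0870 in normal and 0.230, 0.131 and 1.27 in PBOO bladders, so that every PBOO sample was higher, and at week 5 the groups overlapped, with 0.459, 0.128 and 0.428 in normal and 0.144 and 0.377 in PBOO bladders.

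**Figure D3:**
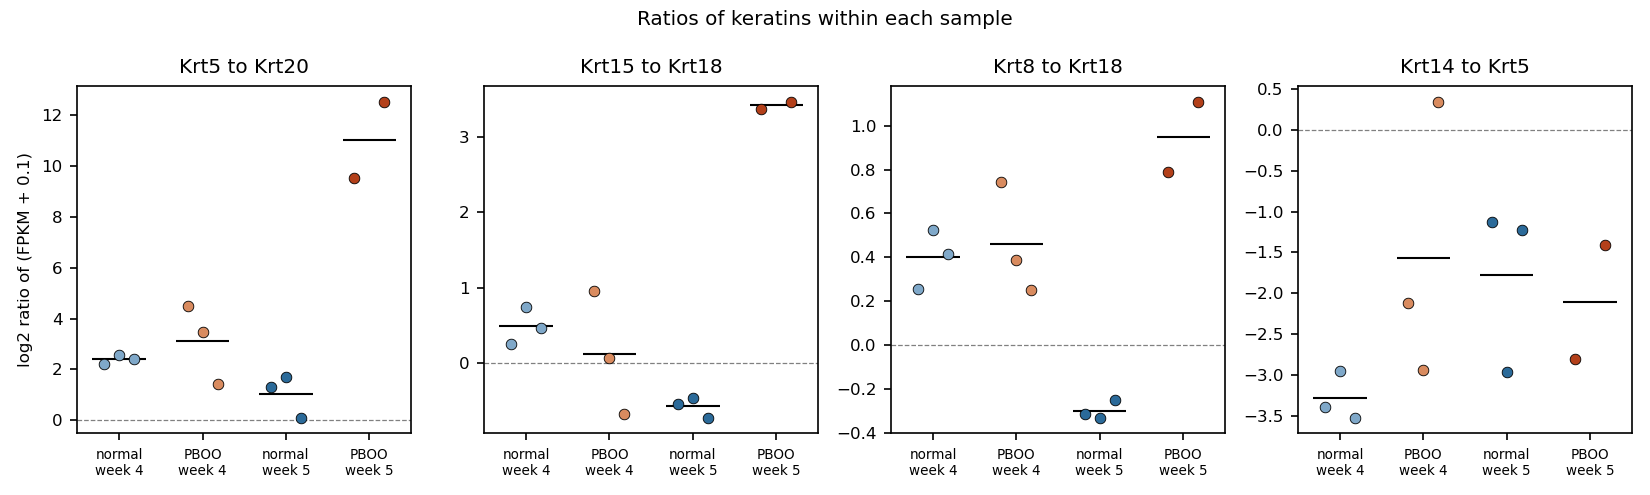
Ratios of 4 keratin pairs within each sample, as the log2 ratio of FPKM + 0.1 on the vertical axis of each panel, for the 4 groups of samples; points are samples, lines are means and the dashed line is a ratio of 1. The PBOO samples of week 5 lie above all normal samples of that week for Krt5 to Krt20, Krt15 to Krt18 and Krt8 to Krt18, and among them for Krt14 to Krt5.

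By summed FPKM, the basal keratins held a larger share of the keratin sum in PBOO than in normal bladders at week 5, and Krt20 a smaller one. Without Krt7, which is listed at 0 at week 4, the 4 basal keratins made up 28.5%, 33.4% and 30.0% of the keratin sum in normal and 37.2%, 29.9% and 28.3% in PBOO bladders at week 4. At week 5, they made up 24.9%, 26.4% and 19.8% in normal and 55.3% and 65.1% in PBOO bladders. Krt20 made up 1.88%, 1.41% and 2.29% of the week 5 sum in normal bladders and 0.0115% and 0.00334% in PBOO bladders. The groups overlapped in the basal share at week 4 and were apart in both shares at week 5.

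The keratins also took a larger part of the whole table at week 5. All 10 together summed to 4714, 3246 and 4917 FPKM in normal bladders, or 1.09%, 0.752% and 1.16% of the column sum, and to 9656 and 12657 FPKM in PBOO bladders, or 2.22% and 2.69%. The summed levels at week 5 had a type I to type II ratio of 1.56, 1.44 and 1.52 in normal and of 2.37 and 1.67 in PBOO bladders. The higher ratio, in PBOO replicate 1, came with 780 FPKM of the type II Krt5 beside 3628 FPKM of the type I Krt15.

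**Figure D4:**
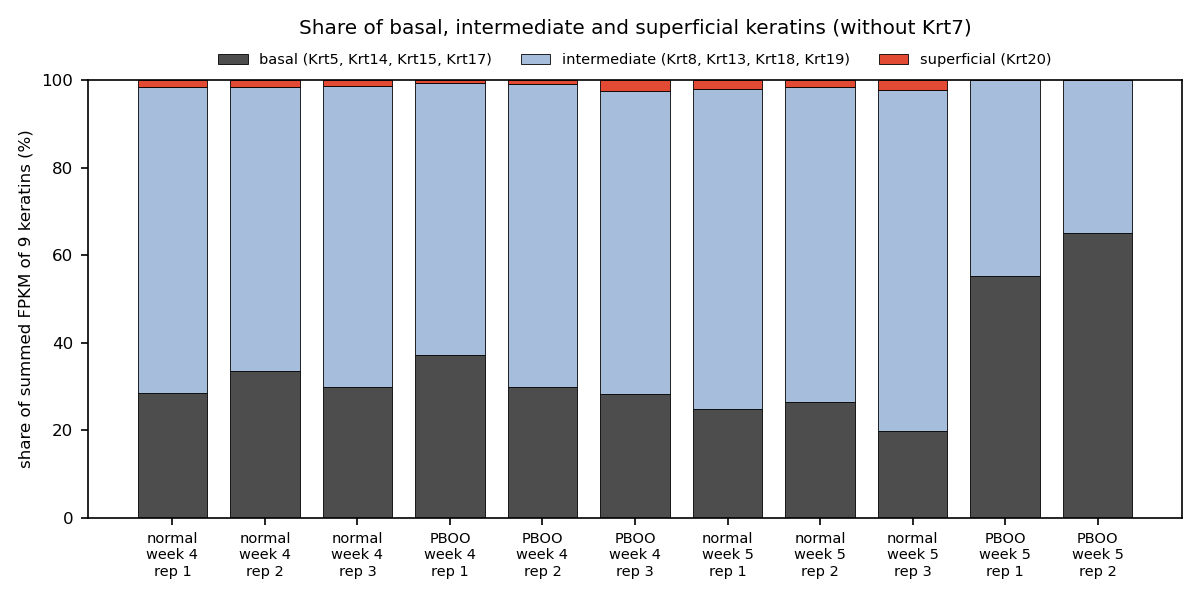
Share of the summed FPKM of 9 keratins (Krt7 left out) held by the basal, intermediate and superficial groups, in percent, with 1 bar for each sample. The basal share is between 19.8% and 37.2% in the first 9 bars and is 55.3% and 65.1% in the PBOO samples of week 5, where the superficial share is too thin to see.

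The difference between the weeks was tested directly, as the PBOO effect of week 5 minus that of week 4 over all 11 samples. Of the 8 keratins tested, 4 were called, 3 upward and 1 downward, beside 27.2% of all 11296 genes (15.6% upward and 11.6% downward). At an unadjusted p under 0.05, 4 were higher and 2 lower, beside 34.6% and 15.7%. Krt5 (log2 difference of effects 3.99, SE 0.69, adjusted p = 0.00175 in limma), Krt15 (3.55, SE 0.37, adjusted p = 8.99e-05 in limma) and Krt19 (2.74, SE 0.47, adjusted p = 0.00173 in limma) had higher effects at week 5. Krt20 (-5.26, SE 0.71, adjusted p = 0.000447 in limma) had a lower one. Krt17 (3.43, adjusted p = 0.0802 in limma), Krt14 (1.94, adjusted p = 0.267 in limma) and Krt8 (0.38, adjusted p = 0.260 in limma) did not pass, nor did Krt18 (-0.81, adjusted p = 0.0566 in limma), although Krt18 passed with 3 other ways of scaling, with differences between -2.30 and -1.10. Without PBOO replicate 2 of week 5 the Krt5 difference was 3.05, and without replicate 1 it was 4.93. The libraries of week 4, PBOO and normal alike, have the word Input in their labels, and those of week 5 do not. The week cannot be told apart from any difference in how the libraries were made. Within week 5, the normal libraries are labelled adult and the PBOO libraries DO. No source used here says whether those groups were prepared together.

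Uroplakins, the membrane proteins of umbrella cells, gave a second view of the surface layer. At week 4, 4 of the 5 could be tested, 0 were called, and all 4 were lower at an unadjusted p under 0.05 (log2 fold changes between -0.86 and -0.70), beside 26.2% of all genes and a median of -0.25 over all genes, while Upk3b was listed at 0. At week 5, Upk3b and Upk2 fell 8.98-fold and 5.24-fold. Upk2 was at 1834, 1557 and 1721 FPKM in normal and at 321 and 328 FPKM in PBOO bladders. Upk3a did not follow. It was at 1764, 1557 and 1796 FPKM in normal and at 1835 and 1656 FPKM in PBOO bladders (log2 fold change 0.03, adjusted p = 0.901 in limma). The fall of Krt20 at week 5 was therefore accompanied by lower Upk2 and Upk3b (a gene that mesothelium also uses), while the Upk3a samples overlapped their controls. Upk1a (-1.11, adjusted p = 0.0566 in limma) and Upk1b (-0.76, adjusted p = 0.115 in limma) did not pass. In both, the PBOO samples lay below all normal samples, as in 25.0% of all genes. At an unadjusted p under 0.05 in limma, 4 of the 5 uroplakins were lower at week 5, beside 18.8% of all genes.

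Keratins hang on desmosomes, which join cells, and on hemidesmosomes, which fix basal cells to the basement membrane. Of 21 such genes, 19 were tested at week 5, 3 were called higher and 0 lower, beside 7.91% and 11.4% of all genes, and the median log2 fold change was 0.79 where all genes had 0.12. At this size the count is not read as a result about the list. Pkp3, a plaque protein of desmosomes, rose 3.45-fold, Itgb4, the integrin chain of hemidesmosomes, 2.80-fold, and Perp 2.02-fold. At week 4, 14 were tested and 0 called, with a median of -0.60, and 5 were listed at 0. Among 12 regulators of urothelial identity, 0 were called at week 4 (11 tested, median -0.81), where Tp63 was at 28.5, 22.5 and 21.5 FPKM in normal and at 11.7, 12.5 and 9.51 FPKM in PBOO bladders (log2 fold change -1.09, adjusted p = 0.0503 in limma). At week 5, Ets2 and the basal cell receptor Cd44 rose 2.84-fold and 2.71-fold, with 0 of the 12 called lower, beside 7.91% of all genes called higher and 11.4% lower. Grhl3, a transcription factor of umbrella cell differentiation, had a log2 fold change of -1.09 (limma, adjusted p = 0.0769).

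Genes of squamous, skin-like epithelium were the last group set beside the keratins. At week 4, 11 of the 22 listed in the table were tested and 0 were called. At week 5, 15 were tested, 5 were called higher and 0 lower, beside 7.91% and 11.4% of all genes. With an unadjusted p under 0.05 in limma, 10 were higher and 1 (Krt80) lower, beside 24.6% and 18.8% of all genes. Krt1, among the 10, averaged 0.379 FPKM in normal bladders, below the filter. It entered the test only through the PBOO samples, so its direction was fixed. Lypd3, a surface protein of suprabasal keratinocytes, was at 42.0, 34.97 and 37.5 FPKM in normal and at 211 and 251 FPKM in PBOO bladders, a 6.03-fold rise. Involucrin (Ivl), a protein of the cornified envelope, was at 10.02, 5.97 and 6.51 FPKM in normal and at 38.4 and 36.4 FPKM in PBOO bladders, a 5.06-fold rise. Serpinb5, a serpin of epithelial cells, was also called. The remaining 2 calls, Krt16 and Serpinb2 (listed at 0 in all 3 normal samples and at 2.27 and 2.65 FPKM in PBOO bladders), entered the test only through the PBOO samples, so their direction was fixed by the filter. Krt10, the keratin of differentiated epidermis, was between 1.69 and 2.45 FPKM in all 5 samples of week 5, and loricrin (Lor) did not exceed 0.0116 FPKM in any sample.

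Another 30 keratin symbols were in the table. At week 4, 7 passed the filter and 0 were called, with Krt12 at a log2 fold change of -2.44 (limma, adjusted p = 0.0629). At week 5, 10 passed the filter, 3 were called higher and 0 lower, beside 7.91% and 11.4% of all genes. With an unadjusted p under 0.05 in limma, 5 were higher and 2 lower, beside 24.6% and 18.8% of all genes. The 2 lower ones were Krt12 (log2 fold change -2.41), which averaged under 1 FPKM, and Krt80 (-1.63). Of the 3 called, Krt23, a type I keratin, was at 10.2, 6.49 and 11.7 FPKM in normal and at 70.3 and 46.4 FPKM in PBOO bladders and rose 6.17-fold. Krt79 rose 4.40-fold from a normal level of at most 1.49 FPKM, and Krt16 was called (log2 fold change 4.13, adjusted p = 0.0443 in limma) with 0.0543, 0.187 and 0 FPKM in the normal samples. Like Krt17, Krt16 passed the filter through the PBOO samples. So did Krt1 (mean of 0.379 FPKM in normal bladders), which is among the 5 higher at an unadjusted p.

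**Figure D5:**
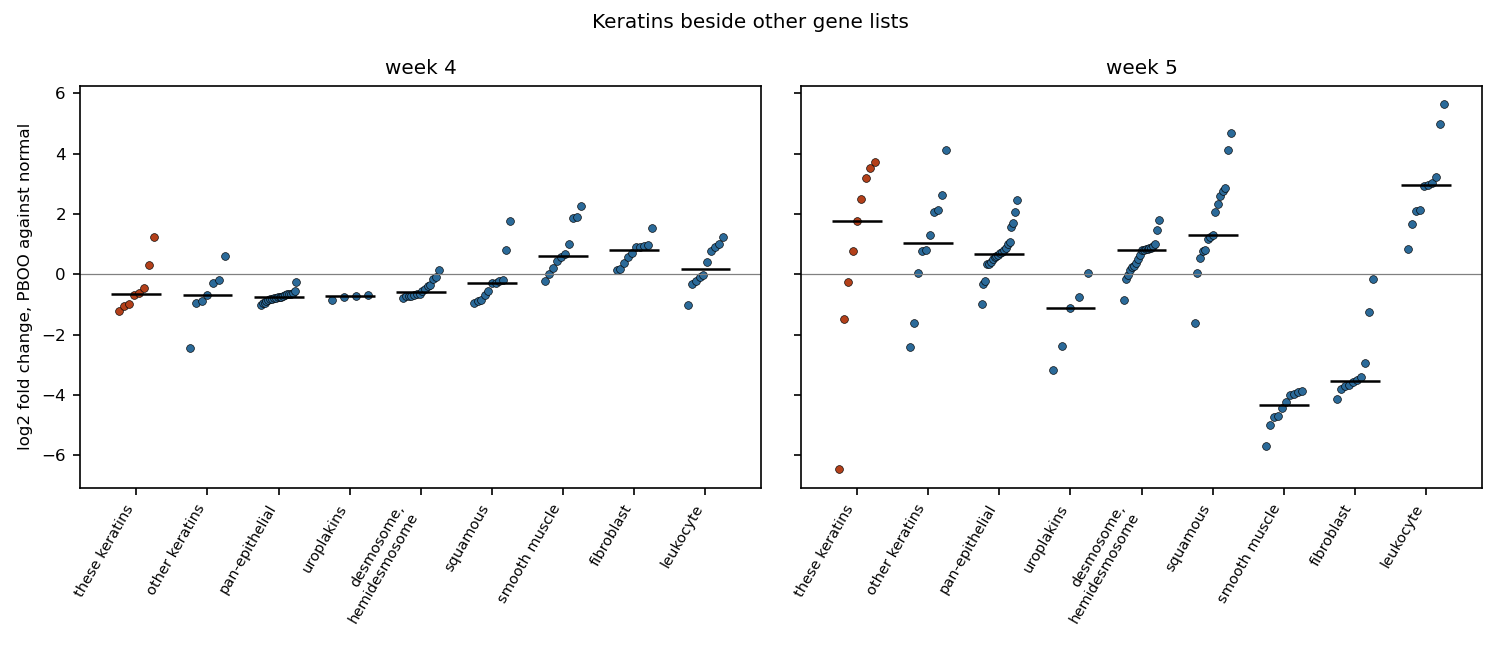
Log2 fold changes between PBOO and normal bladders of each tested gene of the 10 keratins and of 8 other gene lists, at week 4 (left) and week 5 (right); points are genes and lines are list medians. At week 5, smooth muscle and fibroblast genes lie low (medians -4.34 and -3.54), leukocyte genes lie high (2.95), and the keratins spread from -6.47 to 3.73.

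Intermediate filament genes of other cells, and the nuclear lamins, were counted as well. Of 11 tested at week 5, the lamin gene Lmnb1 was called higher (2.40-fold) and 5 genes were called lower, beside 7.91% and 11.4% of all genes. Desmin (Des), the filament of muscle, fell 16.1-fold, its partner synemin (Synm) 59.9-fold, and the neurofilament chains Nefl and Nefm 87.0-fold and 42.0-fold and peripherin (Prph) 4.42-fold. At week 4, Synm had a 2.10-fold higher level and was called (limma, adjusted p = 0.0483), and no gene of the table was called at that week with median-ratio scaling, with centring, without the trend, without a filter or without any 1 of 4 samples.

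The genes most like Krt5 across the 11 samples, by Pearson's r of log2 values centred on the mean of each week, were Gins2 (0.991), Strn (0.991), C1galt1 (0.991), Sh3bp2 (0.986) and Gxylt1 (0.984), out of 9970 genes. Those most like Krt20 were Lmcd1 (0.987), Enho (0.987), Zwint (0.981), Aldoc (0.976) and Pdcl3 (0.975). The 11 points share their libraries and weeks, and the PBOO samples of week 5 set most of each pattern. Gins2 was at a mean of 0.373 FPKM in normal and 2.92 FPKM in PBOO bladders at week 5, and Lmcd1 at 52.5 and 5.76 FPKM.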

How the data were processed

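Bladder RNA of 11 rat samples was examined. The authors trimmed paired reads with SeqPrep and Sickle, mapped them with HISAT2, assembled transcripts with StringTie and deposited FPKM values per gene symbol. Strand is not given in the sources used here, and the notes name mm10. The sources give no read counts, so depth is unknown and the authors' DESeq2 test could not be repeated. Genes averaging 0.5 FPKM or more in the compared samples were tested on log2(FPKM + 0.1), without further scaling, in R 4.3.3 with limma 3.58.1 (lmFit, eBayes with trend), which was tested on simulated data. Fold changes are on this scale and understate low genes. A gene was called at a Benjamini-Hochberg adjusted p under 0.05 over all genes with at least a 2-fold change.

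The members and lists were chosen with earlier results of these data known. From each list and week, genes eligible for naming were up to 4 with the largest absolute change among those with an unadjusted p under 0.05 and a mean of at least 1 FPKM, with Epcam, Cdh1, Tp63 (listed as Trp63 and matched as a synonym) and Upk3a always named. Other list genes named were chosen after their values were seen. Krt6a, Krt6b, Sprr1b and Krtdap had no matching symbol. For likeness, the 5 highest correlations were taken. Of the table's symbols, 84.07% matched RefSeq (GRCr8). Alternatives were pseudocounts of 1 and 0.01, no filter and a filter of 2 FPKM, median-ratio, quantile and sum scaling, centring on the epithelial genes, limma without trend, 1 fit over all samples, a replicate block and leaving out each sample. Exact tests used scipy 1.17.1, tables Python 3.11.15 with pandas 2.3.3 and numpy 2.4.6, and figures matplotlib 3.10.9.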

Additional observations from a re-analysis of the deposited data

Results flagged for a closer look

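In 4 of the 8 keratins tested, the effect of PBOO differed between the weeks by the test of that difference (week 5 minus week 4, limma over 11 samples). By the same test, 27.2% of all 11296 genes were called. The log2 difference of effects was 3.99 for Krt5, 3.55 for Krt15 and 2.74 for Krt19, and it was -5.26 for Krt20. In Krt15 and Krt19, all PBOO samples were below all normal samples at week 4 and above them at week 5. Of all genes tested, 34.9% were separated downward at week 4 and 35.3% upward at week 5. As stated above, the week cannot be separated from any difference in library preparation. With groups of 2 or 3 samples, no single sample could be assessed as standing apart from its group.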

How the results depend on the processing

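At week 4, the count of called keratins was 0 as reported and 1 with 1 fit over all samples (Krt15, limma, adjusted p = 0.0354), and leaving out 1 sample gave 0 to 2, the highest without PBOO replicate 1. The 5 keratins lower at an unadjusted p at week 4 were 2 with median-ratio scaling and 0 when centred on the epithelial genes, where 1 keratin was higher, and leaving out 1 sample gave 4 to 5 lower and 0 to 1 higher. Called keratins were 4 to 7 at week 5 and 4 to 6 for the difference between weeks when 1 sample was left out (at week 5, leaving out a PBOO sample leaves 1, which is assumed to vary like the normal samples), and 1 to 2 were lower at an unadjusted p in the difference. Direction was turned at week 4 by centring for Krt8 (0.12), Krt18 (0.058) and Krt5 (0.28), for Krt17 without normal replicate 3 (-0.0048) and without PBOO replicate 1 (-0.48; range -0.48 to 1.37 with 1 sample left out), and by centring for Krt8 in the difference between weeks (-1.11). The cause was not tested.

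Of the values for single keratins, 424 kept direction and call, 11 gained a call and 6 lost it. Krt18 gained its call in the difference between weeks with median-ratio scaling (-1.10), quantile normalization (-1.23) and centring (-2.30). Krt14 was called at week 5 with 1 fit over all samples (limma, adjusted p = 0.0393). In the difference between weeks, Krt14 and Krt17 were called without PBOO week 5 replicate 1 (3.58 and 4.88), and Krt17 without PBOO week 4 replicate 1 (4.21). The log2 ratio of Krt5 to Krt20 was 0.06 to 1.60 at week 4 and 8.50 to 11.5 at week 5 when 1 sample was left out, with 0.06 without PBOO replicate 1 and 1.60 without PBOO replicate 3 of week 4.

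Over all genes, median-ratio scaling moved the median log2 fold change from -0.25 to -0.01 at week 4, from 0.12 to 0.02 at week 5 and from 0.35 to 0.07 for the difference. At week 4, 30 genes were called higher and 12 lower, but 0 with median-ratio scaling, with centring, without the trend, without a filter or without any of 4 samples (normal replicates 2 and 3, PBOO replicates 2 and 3), 15 and 5 without normal replicate 1, 295 and 424 without PBOO replicate 1, 74 and 11 with quantile normalization, 47 and 7 with sum scaling, 82 and 32 with the filter of 2 FPKM, and 141 and 101 with 1 fit over all samples. At week 5, 1083 were higher and 1554 lower, and 347 and 3410 when centred. For the difference, 1759 were higher and 1314 lower, and 1026 and 1564 with median-ratio scaling, 1091 and 1355 with quantile normalization, 1194 and 1457 with sum scaling and 158 and 5617 when centred.

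Replicate numbers repeat across groups, but same-numbered samples deviated together only weakly (mean correlation 0.121 at week 4 and 0.0615 at week 5). Not every sample correlated best with its own number. Other pairs had means of -0.0637 and -0.0308. Deviations were taken from group means, so at week 5 the value for other pairs is fixed by that for same-numbered pairs. At week 4 this nearly holds, so neither value is a separate reference. With a replicate block, 0 keratins were called at week 4, 6 at week 5 and 4 for the difference, with no change of call.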
